A study of Brassica oleracea var. italica with 2 samples.

Results

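The genes described here are the UDP-glycosyltransferases measured in whole broccoli seedlings (Brassica oleracea var. italica, cultivar Elegance). They were taken as every probe set to which the array annotation gives a single gene whose symbol begins with UGT and a number. This gave 47 genes of 13350 named by a single-gene probe set, and each of the 47 had 1 probe set, so no choice between probe sets was needed. Their family numbers, which form the first part of the symbol, made up 11 families between 71 and 88. Any UDP-glycosyltransferase gene that the annotation names by a locus code or another symbol is not among the 47. Family sizes below therefore count only the genes named in this way and not the whole family. The seedlings of one sample carried the 35S::antisenseBoEMF2.1 construct, an antisense copy of BoEMF2.1 driven by the 35S promoter, and those of the other carried the empty vector pCAMBIA1380. Both were in a wild type background, and both were 11 days old after growth under 16 h of light and 8 h of darkness. BoEMF2.1 is a broccoli relative of Arabidopsis EMF2, a Polycomb group protein that keeps flower development genes silent in seedlings. The genotype label of the antisense sample leaves out the word antisense, so the group was taken from the title, which carries the prefix "as". There was 1 array per genotype and the labels do not say how many plants or transgenic lines each sample holds. No value therefore has a replicate error and no difference could be tested, so "higher" and "lower" refer to these arrays only and not to the genotypes.

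UDP-glycosyltransferases move a sugar, most often glucose, from a UDP-sugar onto a small acceptor molecule. In plants the acceptors include hormones, flavonoids, building blocks of lignin, sterols and defence compounds, and the added sugar usually makes the acceptor more soluble and less active or ready for storage in the vacuole. In the cabbage family a UDP-glycosyltransferase also adds the glucose of the glucosinolates, the mustard oil precursors of broccoli. The roles given below are those known from Arabidopsis, since the array carries Arabidopsis probe sets and the symbols are those of Arabidopsis genes. A probe set may bind broccoli transcripts of several related genes or bind them weakly, so a low signal can reflect sequence difference as well as low expression, and the signal of one gene is not set against that of another.

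The values were MAS5 signals on a linear scale. The trimmed mean signal was 500.04 on the antisense array and 500.03 on the vector array, and the largest signals were 183316.5 and 182425.8. A floor was set at the median signal of the 22746 probe sets that are not array controls, 302.7 on the antisense array and 317.6 on the vector array, and a gene was taken as measured where at least 1 array reached its floor. Ratios are log2 of antisense over vector signal. Where 1 array was under its floor the ratio was taken against that floor and is given as a bound with the words "at least". The spread of a single log2 ratio between probe sets of the same gene, was 0.438 (SD) over 29 genes with a pair of probe sets, each measured on both arrays. That spread covers probe noise within these arrays and not variation between plants. No probe set in the annotation is named EMF2, so the targeted gene was not analysed here. Markers of green tissue and of root were above the floor on both arrays. RCA, the activator of Rubisco, had signals of 6450.1 on the antisense array and 4151.5 on the vector array, and the root hair expansin gene EXPA7 had 1158.2 and 374.7. The other 6 green tissue markers stood between -1.52 (PSAN) and 0.37 (SBPASE) on the log2 scale. The other root markers were EXPA18 at 0.80 and PYK10 at -0.44. The part of tissue makeup in the ratios below was not tested.

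Of the 47 UDP-glycosyltransferase genes, 19 (40.4%) were measured on at least 1 array, against 54.5% of all 13350 genes. Both arrays were above the floor for 13 of these 19. Another 4 of the 47 were above it on the antisense array alone, where 8.54% of all genes were, and 2 on the vector array alone, where 8.86% of all genes were. By their own signals 15 of the 19 were higher and 4 lower in the antisense array, where 47.5% of the 7270 measured genes were higher. For the 6 above the floor on 1 array alone, the floor fixed or all but fixed the direction. The median log2 ratio of the 19 was 0.26, with quartiles of 0.04 and 0.41, against -0.05 with quartiles of -0.39 and 0.30 for all measured genes. These medians include bounds. Among the 13 measured on both arrays 11 were higher, where 46.8% of all 4947 such genes were. The median of the 13 was 0.26, against -0.03 for all such genes. Of these 13, 1 was 2-fold or more higher, where 2.91% of such genes were, and 0 were 2-fold or more lower, where 3.36% were. That gene, UGT74D1, was also the single one of the 19 that was 2-fold or more higher, where 3.12% of all measured genes were, and 0 of the 19 were 2-fold or more lower, where 3.93% were. At 1.5-fold, 3 of the 19 were higher, where 11.2% of all measured genes were, and 0 were lower, where 15.0% were. At 3-fold none of the 19 was higher, where 0.385% were, or lower, where 0.468% were. Bounds were counted at their bound, so a gene given as a bound could lie past a threshold without being counted. The log2 ratio was larger than 0.438, the spread of a single ratio, for 5 of the 19, where 39.3% of all measured genes were past it in either direction. Of these 5, 4 were higher and 1 lower, and 2 are bounds. The plot of signals for all 47 genes shows both values for each.

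**Figure D1:**
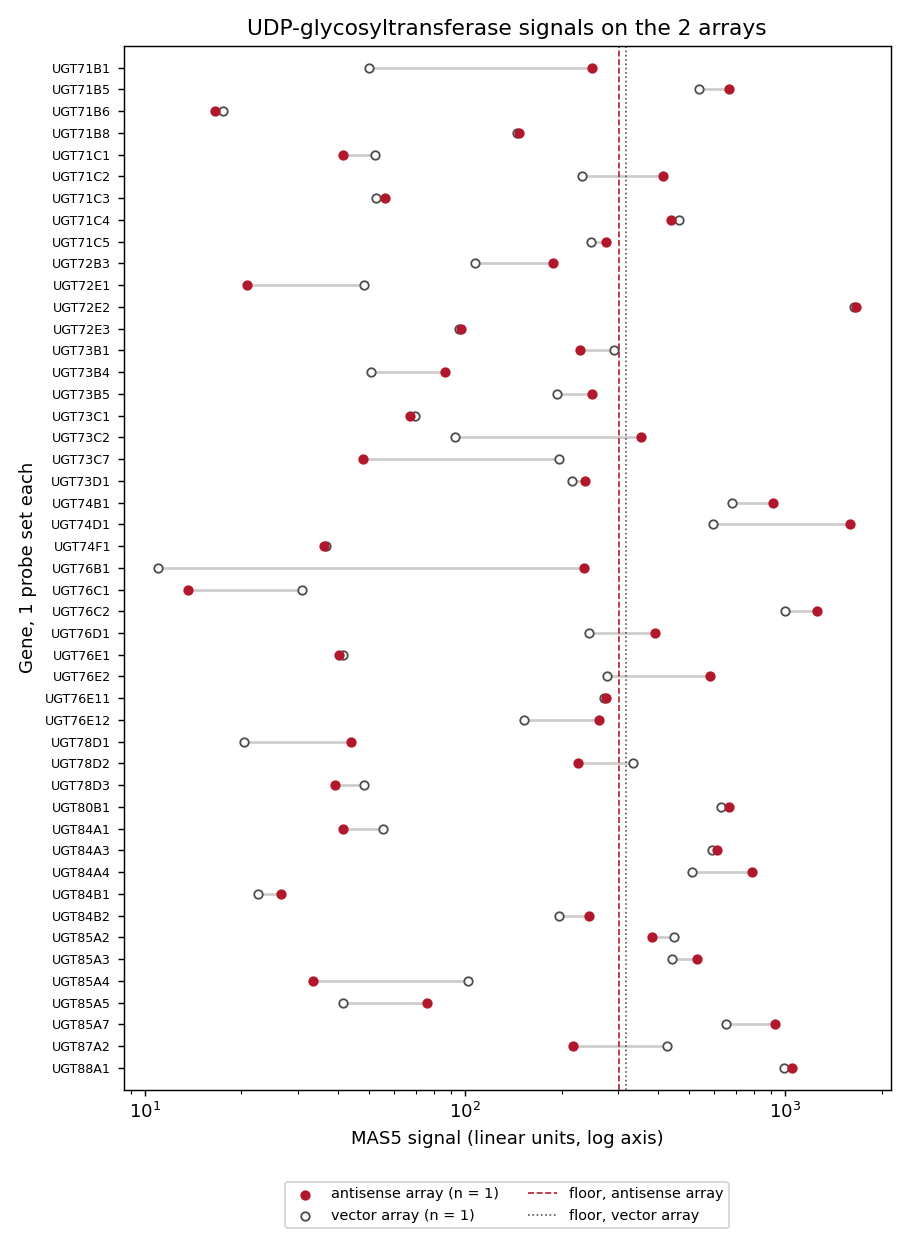
MAS5 signals (horizontal log axis) of the 47 UDP-glycosyltransferase genes, 1 row per gene, with filled points for the antisense array and open points for the vector array (n = 1 each). Vertical lines mark the floors of 302.7 (antisense) and 317.6 (vector). A reader should see the long bar of UGT74D1 to the right of the floors, the 13 pairs that lie right of both lines, and the 28 pairs left of both.

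Family 74 holds glucosinolate and hormone enzymes. Of its 3 genes named here 2 were measured, both higher in the antisense array, where 47.5% of all measured genes were. UGT74D1 had a signal of 1593.5 on the antisense array, against 594.3 on the vector array. It was thus 2.68-fold higher, a log2 ratio of 1.42, and 0.627% of the 4947 genes measured on both arrays had a ratio as high or higher. In Arabidopsis UGT74D1 glucosylates auxins and the auxin breakdown product oxindole acetic acid. UGT74B1, which adds the glucose in glucosinolate synthesis, had 917.4 and 682.1, a 1.34-fold higher signal in the antisense array (log2 ratio 0.43). That difference lies within the spread of a single ratio, and 17.7% of genes had a ratio as high or higher. The third member, UGT74F1, a salicylic acid glucosyltransferase, was below the floor on both arrays, at 36.3 and 36.7.

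Other enzymes that act on hormones and related acids were measured in part. Of the 10 genes placed in that group, which includes UGT74D1, 3 were measured. All 3 had higher signals in the antisense array, where 47.5% of all measured genes did. For UGT76D1 this direction was all but fixed, since it reached the floor on the antisense array alone. Over all 10 genes with no floor, 6 were higher and 4 lower, where 47.2% of all genes were higher, with a median log2 ratio of 0.19. UGT76C2, a cytokinin N-glucosyltransferase, had a signal of 1257.5 on the antisense array and 995.7 on the vector array, 1.26-fold higher. UGT76D1, known for glucosylating dihydroxybenzoic acids made from salicylic acid, had 391.7 on the antisense array and 244.3, under the floor, on the vector array, and was at least 1.23-fold higher. The 7 others reached the floor on neither array. Of these, UGT76B1, which glucosylates isoleucic acid and salicylic acid in defence, had 234.8 and 11.0, and no fold is given since neither signal reached the floor. UGT76C1, the close cytokinin relative of UGT76C2, had 13.6 and 30.9. UGT71C5 and UGT71B6, both known for glucosylating abscisic acid, had 276.3 and 247.6, and 16.5 and 17.5. UGT84B1, an auxin glucosyltransferase, had 26.5 and 22.6, and UGT73C1, a cytokinin O-glucosyltransferase in vitro, had 67.0 and 69.9.

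Of 9 genes for phenylpropanoid and flavonoid acceptors 4 were measured, with a median log2 ratio of 0.04. By their own signals 3 were higher and 1 lower, where 47.5% of all measured genes were higher. UGT84A4, which forms glucose esters of hydroxycinnamic acids, had signals of 788.9 on the antisense array and 512.4 on the vector array and was 1.54-fold higher, a log2 ratio of 0.62. Its neighbour of the same kind, UGT84A3, had 612.7 and 589.5, a log2 ratio of 0.06. The third of this set, UGT84A1, was below the floor at 41.6 and 55.3. UGT72E2, which glucosylates the lignin precursors coniferyl and sinapyl alcohol, had 1659.2 and 1635.7, a log2 ratio of 0.02. UGT72E1 and UGT72E3, with related activities, were below the floor, at 20.8 and 48.4 and at 96.9 and 95.4. The flavonoid 3-O-glucosyltransferase UGT78D2 went the other way, with 225.8, under the floor, on the antisense array and 333.8 on the vector array, at least 1.10-fold lower. That direction was fixed, since UGT78D2 reached the floor on the vector array alone. Its relatives UGT78D1 and UGT78D3, which add rhamnose and arabinose to flavonols, were below the floor, at 44.0 and 20.4 and at 39.2 and 48.4.

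UGT87A2 had the lowest ratio of the 19 measured genes, as a bound. Of the members above the floor on both arrays, the lowest was UGT85A2 at -0.22. In Arabidopsis UGT87A2 affects flowering time, and plants without it flower late. Its signal was 217.1, under the floor, on the antisense array and 426.6 on the vector array. It was thus at least 1.41-fold lower, a bound of -0.49 on the log2 scale. That direction was fixed, since UGT87A2 reached the floor on the vector array alone. Without a floor its log2 ratio was -0.97. It is the only member of its family named here. UGT80B1, a sterol glucosyltransferase needed for normal seed coats, had 666.3 and 630.1, a log2 ratio of 0.08.

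The remaining measured genes belong to families 71, 73, 76, 85 and 88. UGT76E2 had 583.6 on the antisense array and 276.6, under the floor, on the vector array, and was at least 1.84-fold higher. It was past 2-fold where no floor was used, at a log2 ratio of 1.08. The 3 measured members of family 85, which also holds a well studied zeatin O-glucosyltransferase, were above the floor on both arrays. UGT85A7 was 1.42-fold higher, at 930.9 and 653.3, and UGT85A3 was 1.20-fold higher, at 529.7 and 443.0. UGT85A2 was 1.17-fold lower, at 383.6 and 447.6. The 3 measured genes of family 71 were UGT71B5, 1.24-fold higher at 667.7 and 537.1, UGT71C2, at least 1.30-fold higher at 414.2 and 231.6, and UGT71C4, 1.06-fold lower at 440.1 and 466.4. UGT73C2 had 353.1 on the antisense array and 92.8 on the vector array, but the vector value is far under the floor and the bound is at least 1.11-fold. With no floor its log2 ratio was 1.93. UGT88A1, which acts on flavonoids in vitro, had 1048.6 and 987.6, a log2 ratio of 0.09.

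By family, 5 of the 11 had 2 or more measured genes. Their median log2 ratios were 0.93 for family 74 (2 genes), 0.34 for family 76 (3 genes), 0.34 for family 84 (2 genes), 0.31 for family 71 (3 genes) and 0.26 for family 85 (3 genes). The order of these medians depended on the floor. With no floor, where all named genes of a family enter, family 76 stood at 0.51 and family 74 at 0.43. Of the 3 values behind the median of family 76 as reported, 2 are bounds. Families 71 and 85 each held 1 measured gene that was lower in the antisense array beside 2 that were higher. All measured genes of families 74, 76 and 84 were higher, where 47.5% of all measured genes were. UGT76D1, UGT76E2 and UGT71C2 reached the floor on the antisense array alone, which all but fixed their direction. With the genes under both floors included, 2 were higher and 1 lower in family 74, 6 and 2 in family 76 and 4 and 1 in family 84. The same counts were 6 and 3 in family 71 and 3 and 2 in family 85. Of all genes with no floor 47.2% were higher. The other 6 families had 1 measured gene each, higher in 72, 73, 80 and 88 and lower in 78 and 87. Those of families 73, 78 and 87 were above the floor on 1 array only, which fixed or all but fixed their direction. Family 73 had the smallest measured share, with 1 measured gene of the 7 named here.

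**Figure D2:**
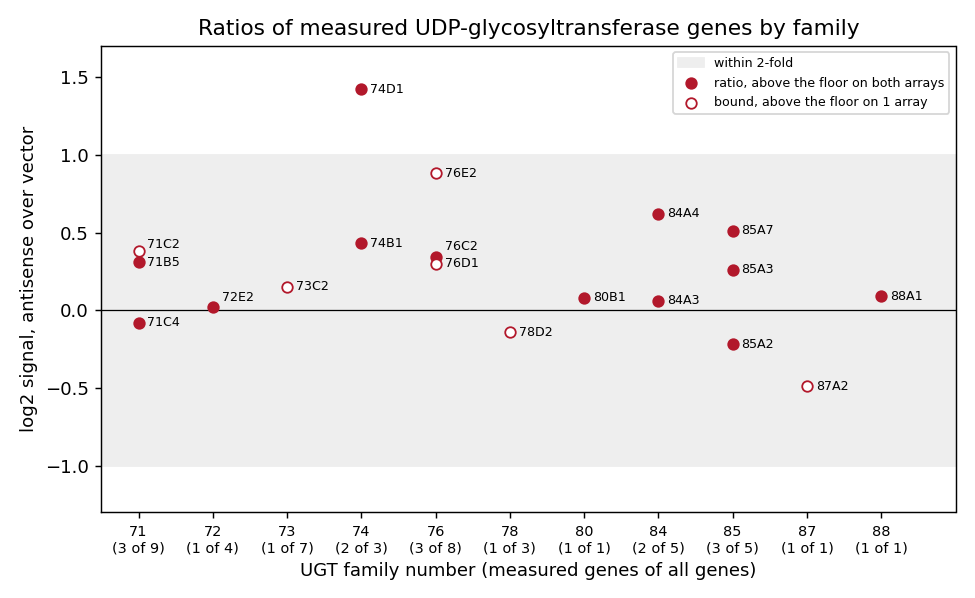
Log2 ratio of antisense over vector signal (vertical axis) for the 19 measured UDP-glycosyltransferase genes by family number (horizontal axis, with measured genes of all genes), 1 point per gene from 1 array per genotype. Filled points are ratios, open points are bounds and the grey band is the range within 2-fold. UGT74D1 at 1.42 is the single gene outside the band, and UGT87A2 at -0.49, a bound, is the lowest.

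The 28 genes under both floors went both ways. Their signals had a median of 71.4 on the antisense array (13.6 to 276.3) and 53.9 on the vector array (11.0 to 292.5). By their own signals 16 were higher and 12 lower in the antisense array. With these included, 31 of all 47 genes were higher, where 47.2% of all 13350 genes were, and the median log2 ratio with no floor was 0.10, against -0.05 for all genes. Other wide gaps under the floor were those of UGT71B1 at 249.4 and 49.9, UGT85A4 at 33.5 and 101.7 and UGT73C7 at 47.9 and 196.7. UGT73C7 has UGT73D1 as a neighbour in the Arabidopsis genome, and UGT73D1 had 236.6 and 214.9, the opposite order. UGT76E11, a flavonol glucosyltransferase, had nearly the same signal on both arrays, 275.0 and 271.4.

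Many members lie side by side in the Arabidopsis genome. The gene numbers of the annotation were read against those of genes named by locus code, of which 99.6% of next neighbours in number were on the same chromosome. This placed 12 members on chromosome 1, 12 on chromosome 2, 10 on chromosome 3, 5 on chromosome 4 and 8 on chromosome 5. By gene numbers no more than 4 apart, 31 of the 47 fell into 13 runs of 2 to 4 genes. The run of UGT85A7, UGT85A2, UGT85A5 and UGT85A3 lies between AT1G22330 and AT1G22410 on chromosome 1. It held 3 measured genes, of which UGT85A2 alone was lower in the antisense array, and UGT85A5 was below the floor at 75.9 and 41.5. The run of UGT84A1, UGT84A3 and UGT84A4 lies between AT4G15475 and AT4G15520 on chromosome 4. The UGT76E1 and UGT76E2 pair lies between AT5G59540 and AT5G59600 on chromosome 5, with UGT76E1 below the floor at 40.4 and 41.6. In 8 of the 13 runs at least 1 gene was measured and at least 1 was not, in 5 no gene was measured, and in 0 were all measured. These places are those of the Arabidopsis genes, and broccoli positions were not used here.

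Genes that make the acceptors or the UDP-sugars were thinly named by the annotation. Of 47 symbols listed for glucosinolate synthesis and transport 7 were named and 3 measured. All 3 were higher in the antisense array, where 47.5% of all measured genes were, with a median log2 ratio of 0.82. Of these, 1 was 2-fold or more higher, where 3.12% of all measured genes were. By their own signals 6 of the 7 were higher and 1 lower, where 47.2% of all genes with no floor were higher. Of the 7, 4 were under both floors. The lower gene, AOP3, was under both floors at 55.8 on the antisense array and 273.1 on the vector array. BCAT4, which starts the chain elongation of methionine for glucosinolates, had 520.7 on the antisense array and 273.4, under the floor, on the vector array. It was at least 1.64-fold higher, a direction all but fixed because the antisense array alone reached the floor. GTR2, a glucosinolate transporter, had 643.9 and 365.4, 1.76-fold higher. The third, FMO, a flavin monooxygenase, was 3.86-fold higher at 2408.4 and 623.7. Its symbol does not show whether it acts on glucosinolates, and without it the median was 0.77 over 2 genes with 0 past 2-fold. The single UDP-sugar gene named was USP, an enzyme that makes UDP-sugars from sugar phosphates. It had 90.4, under the floor, on the antisense array and 530.3 on the vector array, at least 1.75-fold lower. That direction was fixed, since the vector array alone reached the floor.

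In the other related lists no measured gene was 2-fold or more lower, where 3.93% of all measured genes were. Of 48 symbols for phenylpropanoid and flavonoid synthesis 6 were named. CHI, named among them, had 7664.0 on the antisense array and 73.8, under the floor, on the vector array, at least 24.13-fold higher. By ratio or bound, no other measured gene of these lists was 2-fold or more higher, where 3.12% of all measured genes were. By its gene number CHI lies between AT2G43560 and AT2G43580, which is not the place of chalcone isomerase, and it was left out. Of the other 5, 3 were measured. They were HCT, a transferase of lignin synthesis, at 0.31, DFR, an enzyme of anthocyanin synthesis, at -0.10, and CCR2, a cinnamoyl-CoA reductase. CCR2 had 302.8 on the antisense array, just at the floor, and 146.7 on the vector array, so that its bound was -0.07 although its own log2 ratio was 1.05. The median of these 3 is that bound. With CHI kept the median was 0.12, which a floor set at the 25th percentile moved to 0.68 and one at the 75th percentile to 3.59. Of 84 symbols for hormone synthesis and turnover 6 were named and 2 measured, the auxin synthesis genes YUC2 at -0.16 and YUC4 at 0.18 as a bound. Glutathione S-transferases, which share the work of detoxification with UDP-glycosyltransferases, had 8 of 13 genes measured, 4 higher and 4 lower, with a median of 0.07, and none was past 2-fold. Their ratios reached 0.64 for GSTL3 and -0.96 for GSTU27. A list of symbols from cell wall synthesis, mostly glycosyltransferases but also IRX15 and IRX15-L, xylan proteins not known to be glycosyltransferases, had 6 of 10 genes measured, 3 higher and 3 lower, with a median of -0.07, and ranged from -0.27 (CSLC04) to 0.61 (CSLC6).

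The count of higher members changed with how the arrays are scaled. When the arrays were scaled to the 18 hybridization controls, RNAs added at known amounts, each log2 ratio was lowered by 0.193. Then 11 of the 19 were higher by their own signals, where 36.6% of all measured genes were, and the median was 0.06 against -0.24 for all genes. Of all measured genes 1.64% were then 2-fold or more higher and 7.19% 2-fold or more lower. UGT74D1 then stood at 1.23. UGT72E2, UGT80B1, UGT84A3, UGT88A1 and the bound of UGT73C2 turned negative. Since this scaling lowers every ratio alike, it leaves the members' place relative to all genes as it was. The distance of the members' median from that of all genes was 0.31 as reported, 0.15 with no floor and 0.10 with a pseudocount, where all 47 genes enter.

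**Figure D3:**
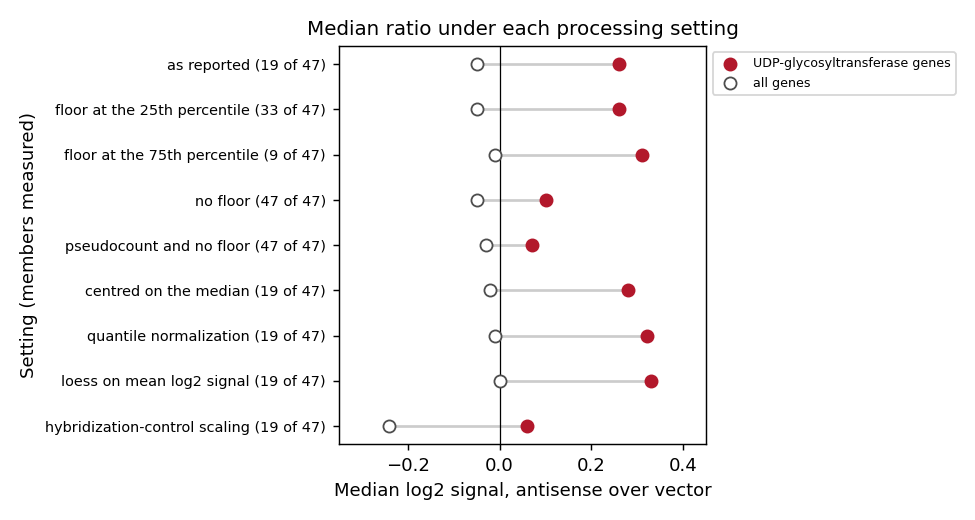
Median log2 ratio of antisense over vector signal (horizontal axis) under each processing setting (rows, with the number of the 47 genes measured), with filled points for the UDP-glycosyltransferase genes and open points for all measured genes, from 1 array per genotype. The members' median lies right of that of all genes in each row, by 0.31 as reported, and by the least, 0.10, with a pseudocount and no floor.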

How the data were processed

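Signals from 2 arrays, 1 of antisense and 1 of empty vector seedlings, were used. Per the labels' protocols, RNA was extracted with Trizol, and biotinylated cRNA was made from 10 µg of total RNA. Each deposited value is a signal intensity, linear and not logged. The submitters' processing notes name MAS5, whose version is not given in the sources used here. Detection calls were not used here. The annotation gives 1 gene for 13513 of 22810 probe sets and several for 503. The 64 array controls were left out of floors and counts.

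Floors, ratios and bounds were computed as described in the report, with pandas 2.3.3 and numpy 2.4.6 under Python 3.11.15. Loess fits used statsmodels 0.14.6, trimmed means scipy 1.17.1 and figures matplotlib 3.10.9. The procedure was tested on simulated data with less noise than these arrays. The simulated shifts were all past 2-fold and in probe sets well above the floor, so that test does not cover genes near the floor. With 1 array per group, precision is limited by the number of arrays. The members, roles and related lists were chosen with earlier results of these data known. Every member could be named. Members under both floors were given with no fold. Of the related lists, genes past 2-fold and otherwise up to 4 were named. Alternatives were a floor at the 25th percentile, at the 75th percentile or no floor, a pseudocount at the 25th percentile, centring, quantile and loess normalization (span 0.4), hybridization-control scaling, thresholds of 1.5-fold and 3-fold, and other member sets.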

Additional observations from a re-analysis of the deposited data

Results flagged for a closer look

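Probe sets that name a UDP-glycosyltransferase beside another gene were left out of the comparison, and 2 of 3 were above the floor with a higher signal on the antisense than on the vector array. The probe set of UGT73B2 and UGT73B3 had 880.8 on the antisense array and 735.2 on the vector array, a log2 ratio of 0.26. That of UGT89B1 and AT1G73885 had 529.3 and 504.8, a log2 ratio of 0.07. Both ratios lie within the spread of a single ratio, 0.438. The third, of UGT71D1 and AT2G29710, was below the floor on both arrays at 167.3 and 188.8.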

How the results depend on the processing

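No paired analysis was possible because there was 1 array per genotype, which also meant that none could be omitted. Values counted as moved if they shifted by more than 0.438, or for counts by more than 1.5 times. The number of measured members, 19, became 33 and 9 with floors at the 25th and 75th percentile and 47 with no floor or with a pseudocount. Members 2-fold or more higher, 1 as reported, became 5 with the lower floor, 6 with no floor and 4 with the pseudocount, and 3 at 1.5-fold and 0 at 3-fold. Members 2-fold or more lower, 0 as reported, became 1, 4 and 1 in the first 3 of these settings. In the same 3 settings 10.9%, 14.5% and 6.7% of all measured genes were 2-fold or more higher, and 13.5%, 17.3% and 8.07% were lower. These counts depend on the floor by construction. Of the 4 members that passed 2-fold higher in addition at the lower floor, UGT71B1 and UGT76B1 were newly measured, and UGT73C2 and UGT76E2 passed because the lower floor loosened their bounds. UGT74D1 was past 2-fold in all 8 alternatives of floor and scaling, from 1.23 to 1.45. The median of family 74, 0.93, became 0.43 with no floor and 0.38 with the pseudocount, as UGT74F1 then entered, while that of family 76, 0.34, became 0.51 and 0.42 in these settings and 0.73 with the lower floor. Over all genes, 227 higher and 286 lower became 1188 and 1464 with the lower floor, 80 and 84 with the higher one, 1942 and 2307 with no floor, 894 and 1077 with the pseudocount, and 119 and 523 with hybridization-control scaling. A threshold of 1.5-fold gave 814 and 1088, and one of 3-fold gave 28 and 34. Every member has 1 probe set of the plain kind and a family number within 71 to 92, so that other choices of probe set or family changed no member. Leaving CHI out of the flavonoid list and FMO out of the glucosinolate list was chosen after seeing the data.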

Other observations

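The annotation names further glycosyltransferases of small molecules under other symbols, which the symbol rule left out of the 47. Those given here were chosen after their values were seen. IAGLU, an indole acetic acid glucosyltransferase, had 1498.5 on the antisense array and 1660.7 on the vector array, a log2 ratio of -0.15. UF3GT, a flavonoid glycosyltransferase, had 517.3 and 705.1, a log2 ratio of -0.45. GT72B1 had 336.1 on the antisense array and 224.1, under the floor, on the vector array, a bound of 0.08. IAGLU and UF3GT, each above the floor on both arrays, were thus lower in the antisense array. GT72B1 was higher by its own signals, a direction all but fixed because the antisense array alone reached the floor.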
